A study of Mus musculus with 2 samples.

Results

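Transcripts of Schwann cells and axons were counted in single muscle fibers through 6 genes, Pmp22, Mbp, Prx, Mag and Sox10, genes of the Schwann cell, and Nefl, a gene of the axon. Counts of 5 of the 6 were read from a table of 35161 gene symbols, and Nefl, the neurofilament light chain, was not analysed here. The fibers came from the FDB (flexor digitorum brevis), which bends the toes, of 1 untreated C57BL/6J mouse more than 3 months old. The paper itself describes its mice as adult males and names 2 backgrounds, C57BL/6J and DBA2. After collagenase digestion they were placed one by one into 8 plates of 96 wells, and the labels call 670 of the 763 cells whole myocytes and 93 fragments. Plates 705 to 708 were sequenced on lane 1 and plates 709 to 712 on lane 2. The counts below are from the 171 cells with more than 5000 genes and under 20% mitochondrial counts, of which 168 were whole myocytes and 3 were fragments. There was 1 mouse and no treated or control group, so cells and lanes are not biological replicates, no p-value is given, and every limit below covers counting error only.

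Schwann cells are the glia of peripheral nerves. A myelinating Schwann cell wraps 1 axon, the long process of a nerve cell, in layers of membrane, and the myelinated motor axons run in the nerve up to the neuromuscular junction, where terminal Schwann cells cover the nerve ending. Pmp22 encodes a membrane protein of compact peripheral myelin, Mbp the basic protein that holds the inner faces of the membrane together, Prx (periaxin) a scaffold of the outer Schwann cell membrane, Mag an adhesion protein facing the axon, and Sox10 the transcription factor that Schwann cells need at every stage. Pmp22 is also active outside the nervous system, in fibroblasts and other cells, and Mbp has non-myelin transcripts in blood cells.

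Pmp22 is known to be read from alternative promoters, an upstream one used in myelinating Schwann cells and a downstream one used more widely. The counts give 1 number for the gene and cannot tell these start sites apart, which matters for how far its UMIs can be assigned to Schwann cells. The 250 bases before the first and last of its 4 start sites in the RefSeq promoter set (GRCm38.p6) are shown with the window of Prx, with each CG in capitals. They lie at chr11:63128732-63128981, chr11:63132553-63132802 and chr7:27499074-27499323, all on the plus strand.
Pmp22, first start site: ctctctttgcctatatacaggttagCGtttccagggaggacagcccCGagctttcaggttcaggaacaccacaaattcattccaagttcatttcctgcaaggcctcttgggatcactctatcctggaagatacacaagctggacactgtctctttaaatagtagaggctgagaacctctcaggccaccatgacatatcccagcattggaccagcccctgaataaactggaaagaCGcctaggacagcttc
Pmp22, last start site: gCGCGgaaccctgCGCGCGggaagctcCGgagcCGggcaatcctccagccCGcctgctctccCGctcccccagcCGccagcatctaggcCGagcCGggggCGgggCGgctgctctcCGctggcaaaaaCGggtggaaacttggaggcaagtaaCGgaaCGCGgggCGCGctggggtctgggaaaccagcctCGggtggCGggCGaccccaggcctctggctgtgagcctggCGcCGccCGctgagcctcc
Prx: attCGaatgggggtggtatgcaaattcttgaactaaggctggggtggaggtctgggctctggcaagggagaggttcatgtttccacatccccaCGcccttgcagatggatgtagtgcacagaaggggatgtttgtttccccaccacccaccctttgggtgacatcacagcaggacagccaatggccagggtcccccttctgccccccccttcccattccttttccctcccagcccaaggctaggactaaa
CG was counted on both strands at once, as it reads the same on each. The first Pmp22 window holds 3 CG, the last holds 27 and the Prx window holds 2. The 2 windows between them hold 14 each. Over 32851 promoter windows of this length the median was 6, with quartiles of 2 and 16, and 92.1% held at least 1.

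The 171 cells held 51923865 UMIs, each standing for 1 captured molecule, with 28827 to 1542996 per cell and a median of 239581. All 8 muscle genes checked, among them Ttn and Acta1, had UMIs in all 171 cells. The plates use the same 96 cell barcodes of 6 bases with a plate index of 8 bases, and 0 full barcodes occurred on both lanes. The pair of kept cells with the most UMIs of these genes held a large part of them. Most results that rest on the pair are given with and without these cells. They are called cell A and cell B and were picked after the counts were seen. Their barcodes are shown because other plates use the same cell barcode, which is in capitals after the plate index.
Cell A: ctctctacCTTTAA
Cell B: ctctctacATTCTA
The cell barcodes of A and B differ at 3 of 6 positions.

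Pmp22 had the most UMIs of the 5 genes and Mag the fewest. UMIs are counted once per molecule and were not scaled by gene length, so levels are UMIs divided by all UMIs, scaled to 1000000 (CPM). Over the 171 cells Pmp22 had 1617 UMIs, or 31.1 CPM (95% Poisson limits 29.6 to 32.7). Mbp had 664 UMIs, or 12.8 CPM (limits 11.8 to 13.8). Prx had 262 UMIs, or 5.05 CPM (limits 4.45 to 5.70). The limits of neighbours in this order did not overlap. Sox10 followed with 100 UMIs, or 1.93 CPM (limits 1.57 to 2.34). Mag had 26 UMIs, or 0.501 CPM (limits 0.327 to 0.734). Cells A and B together held 38.7% of all Mbp UMIs and 33.2% of those of Prx. Their share was 14.3% for Pmp22, 17% for Sox10 and 15.4% for Mag. In the other 169 cells the levels were 26.9 CPM for Pmp22, 7.90 for Mbp, 3.39 for Prx, 1.61 for Sox10 and 0.427 for Mag, in the same order.

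On the 2 lanes, which carry different plates of the same mouse, Pmp22 was 37.6 and 25.2 CPM. Mbp was 20.7 CPM on lane 1 and 5.46 CPM on lane 2. Prx was 6.59 and 3.61 CPM. The 3 myelin genes were thus higher on the lane that carries cells A and B. Of the UMIs on lane 1 the pair held 232 of 940 for Pmp22, 257 of 517 for Mbp and 87 of 165 for Prx. The levels of lane 1 without the pair were not computed. Sox10 was 2.04 and 1.82 CPM, and Mag was 0.480 and 0.520 CPM. Limits of the 2 lanes overlapped for Sox10 and Mag. The genes lie in GRCm38 on chromosome 11 from 63128982 to 63159547 on the plus strand (Pmp22), chromosome 18 from 82475146 to 82585637 on the plus strand (Mbp), chromosome 7 from 27499324 to 27520214 on the plus strand (Prx), chromosome 7 from 30899176 to 30914873 on the minus strand (Mag) and chromosome 15 from 79154908 to 79165240 on the minus strand (Sox10). Mbp spans 110492 bases against a median of 9842 over 35103 genes of the table. On the opposite strand it overlaps the pseudogene Rpl21-ps8, and Prx overlaps Gm15541.

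Most cells carried at least 1 UMI of Pmp22, and few carried Mag. A UMI of Pmp22 was found in 148 of 171 cells (86.5%, exact binomial limits 80.5 to 91.3) and of Mbp in 103 (60.2%, limits 52.5 to 67.6). Prx was found in 66 cells (38.6%, limits 31.3 to 46.3), Sox10 in 47 (27.5%, limits 20.9 to 34.8) and Mag in 17 (9.94%, limits 5.90 to 15.4). Many of these cells held 1 UMI only. That was so in 34 of the 47 cells with Sox10, 13 of the 17 with Mag, 25 of the 66 with Prx and 39 of the 103 with Mbp, but in 19 of the 148 with Pmp22. The highest count in a cell was 178 for Pmp22, 181 for Mbp, 45 for Prx, 9 for Sox10 and 4 for Mag.

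For comparison, 16 genes of organs that were not in the dish were counted the same way in the same cells. All 16 had UMIs, in a median of 9.5 cells each, and their 745 UMIs came to 14.3 CPM. The most widely found were Sag, an arrestin of the retina, in 90 cells at 5.51 CPM, and Prm1, a sperm protamine, in 62 cells at 3.02 CPM. The shares of Prx, Sox10 and Mag lay below that of Sag, and those of Sox10 and Mag also below that of Prm1. Only Pmp22 and Mbp were found in more cells than any of the 16. Prx was found in more cells than 15 of the 16 and Sox10 in more than 14, since the next after Prm1 was found in 28 cells.

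**Figure D1:**
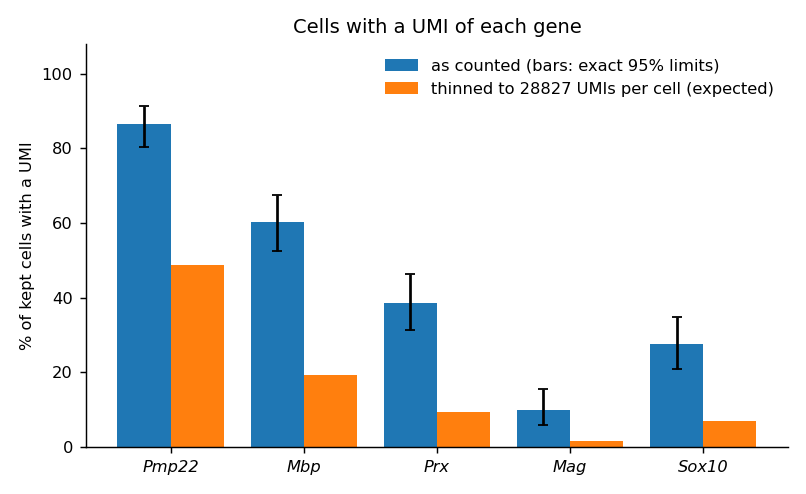
Percent of the 171 kept cells with at least 1 UMI of each gene (vertical axis), as counted with exact 95% binomial limits and as computed after thinning every cell to 28827 UMIs. Pmp22 goes from 86.5% to 48.9% and Mbp from 60.2% to 19.4%, while the order of the genes is the same.

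The share of cells with a UMI followed depth. Cells with Pmp22 had a median of 259206 UMIs in all and cells without it 75093. For Mbp the medians were 313190 and 147625, and for Mag 490204 and 209529. When every cell was thinned to 28827 UMIs, the depth of the shallowest, the expected shares were 48.9% for Pmp22, 19.4% for Mbp, 9.42% for Prx, 6.91% for Sox10 and 1.45% for Mag. Each of the 5 shares fell, and Mag fell to 2.48 expected cells.

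Co-occurrence was counted as the number of the 5 genes with a UMI in a cell. Of the 171 cells, 10 carried none of the genes, 46 carried 1, 39 carried 2, 49 carried 3, 25 carried 4 and 2 carried all 5. At least 3 were found in 76 cells (44.4%, limits 36.9 to 52.2). If the genes fell independently with the shares above, 64.5 cells would carry at least 3, 68.0 when this product is taken within 3 equal groups of cells by depth, and 69.4 when it is taken within the shallower and the deeper cells of each plate. At least 4 were found in 27 cells, against 14.2 from the product, 20.3 within the depth groups and 24.8 within plate and depth. The 57 shallowest cells had at least 3 genes in 13 cases (22.8%), the 57 in the middle in 20 (35.1%) and the 57 deepest in 43 (75.4%). With at least 2 UMIs required of each gene the share was 19.3%, and thinned to 28827 UMIs it was 4.92%.

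Most pairs of genes met in slightly more cells than the product of their shares, less so once depth and plate were held. Of the 10 pairs among the 5 genes, 9 were above the product over all cells, 8 within the depth groups and 6 within plate and depth. The pair of Mbp and Prx was found in 54 cells, against 45.6 within the depth groups and 49.5 within plate and depth, which is 52.4% of the cells with Mbp and 81.8% of those with Prx. Mbp and Sox10 met in 34 cells against 29.7 within the depth groups and 34.5 within plate and depth. Mag and Sox10 met in 4 cells against 5.28, so Mag was no more frequent beside Sox10 than the product. These numbers are counted in cells of 1 mouse, in which pairs share cells, and carries no test.

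For all 10 pairs the correlation of levels over cells was higher with cells A and B than without them. Their choice by the sum of these same genes favours this, so the drops only describe it. Pearson's r of log2(CPM + 10) over the 171 cells was 0.54 between Mbp and Prx and 0.25 without A and B. Between Pmp22 and Mbp it was 0.44 and 0.22. Prx and Sox10 had 0.59 and 0.45, and Prx and Mag 0.51 and 0.50, the latter on 11 shared cells. These cells share libraries and differ in depth, and a low count becomes a high CPM in a shallow cell.

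**Figure D2:**
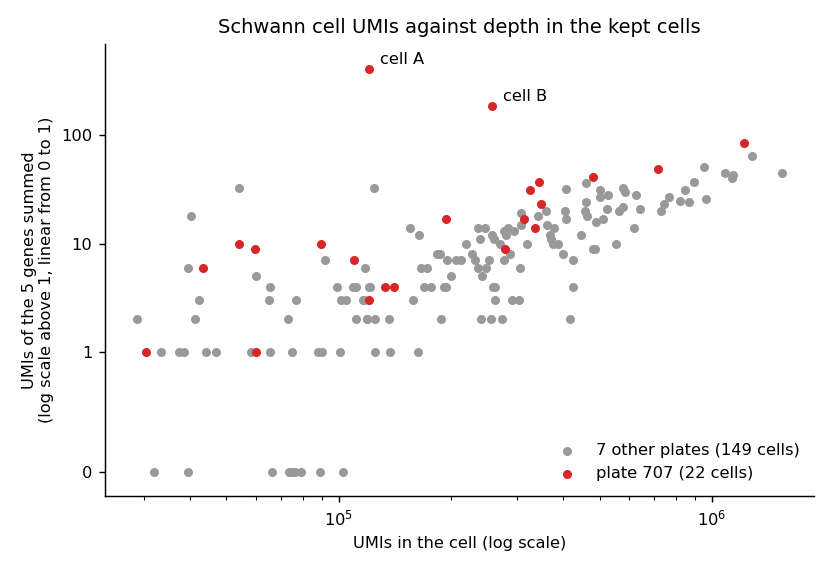
UMIs of the 5 genes summed in each of the 171 kept cells (vertical axis, logarithmic above 1) against all UMIs of the cell (horizontal axis, logarithmic), with the 22 cells of plate 707 in red. Cell A with 410 UMIs and cell B with 187 have the most, and the next, with 86, is a cell of 1218750 UMIs.

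Cells A and B held 597 of the 2669 UMIs of the 5 genes. Cell A, with 120365 UMIs and 12240 genes in all, had 410 of them, or 3406 CPM (limits 3085 to 3753). Its counts were 178 of Pmp22, 181 of Mbp, 42 of Prx, 9 of Sox10 and 0 of Mag. Cell B, with 257020 UMIs and 16417 genes, had 187, or 728 CPM (limits 627 to 840), made up of 54 of Pmp22, 76 of Mbp, 45 of Prx, 8 of Sox10 and 4 of Mag. The next cell by UMIs had 86 at 70.6 CPM, and the median cell had 7. By CPM the next was a cell in row 7 of plate 705, with 33 UMIs among 54160, or 609 CPM (limits 419 to 856), which overlaps cell B. The 2 after it had 449 and 265 CPM, and the median per cell was 32.9 CPM. Cell A thus lay apart on both scales and cell B only by its UMIs. Both cells lay in row 2 of plate 707, and the labels call both whole myocytes. Their mitochondrial shares of 6.45% and 5.58% were near the median of 5.96%, and in depth they ranked 119 and 79 of the 171. Cell A was led by Myh1, with 58.8% of the counts of 5 myosin heavy chain genes, and cell B by Myh4 with 53.5%.

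The log2 ratios of the genes used for the choice were 4.52 for Pmp22, 6.43 for Mbp, 6.09 for Prx, 4.63 for Mag and 4.81 for Sox10, and these only describe it. Over 22825 genes with at least 20 UMIs, 7.35% were at least 8-fold higher in A and B, and the median log2 ratio was 0.20. For the gene lists below, the minimum of 20 UMIs was required in the other 169 cells alone, so that a gene did not pass through A and B. The 5 genes were left out of the counts and median ratios of the lists, but not out of their summed levels. This minimum was set after the counts were seen. It left 22722 genes, of which 7.05% were at least 8-fold higher, with a median log2 ratio of 0.18.

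Gene lists of the cells that make up a nerve were read against that 7.05%. Of the 12 myelinating Schwann genes with enough UMIs, 11 were at least 8-fold higher in A and B, with a median log2 ratio of 4.50. In cell A alone 12 were, and in cell B alone 7, but the share over all genes was not computed for either cell alone. In 1 cell a gene can pass on very few UMIs, as Gjb1 did in A on 1 UMI. Of the 7 genes of organs not in the dish, 1 passed in cell A alone and 2 in cell B alone. Among the 11 were Cnp, a myelin enzyme, with a log2 ratio of 3.20, and Fa2h, which makes hydroxylated myelin lipids, with 4.36. Of 7 Schwann lineage genes 5 were at least 8-fold higher, with a median of 3.57. Plekhb1, a membrane-bound protein, had 18 and 94 UMIs in A and B, a log2 ratio of 3.40. Matn2, a matrix protein, had 7 and 33 and a ratio of 4.01, while Adgrg6, a receptor needed for myelination, had 2.06. Of the 7 genes of nonmyelinating and terminal Schwann cells, 3 were at least 8-fold higher. Cadm2 and Ncam1, which are adhesion molecules, had log2 ratios of 0.08 and 1.20, whereas Apod, a lipid carrier, had 7.05.

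The perineurium, the sheath around a nerve fascicle, and fibroblasts were represented too. All 4 perineurial genes with enough UMIs were at least 8-fold higher in A and B, and the summed level of the whole list was 1014 CPM in A and 1194 in B, against at most 359 in another cell. Slc2a1, a glucose transporter, had a log2 ratio of 3.18, and Itgb4, an integrin, 5.56. Of the 8 fibroblast genes 7 were at least 8-fold higher, and the list came to 1786 and 2502 CPM against a median of 36.4, but another cell reached 3884. Dcn, the proteoglycan decorin, had 110 and 386 UMIs. Of other lists, the number at least 8-fold higher was 5 of 8 for leukocytes (1 of 8 in cell A alone), 2 of 8 for smooth muscle and pericytes, 1 of 9 for endothelium, 1 of 4 for erythroid cells, 1 of 3 for central oligodendrocytes, 0 of 4 for satellite cells and 0 of 7 for the organs not in the dish.

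Most axon genes had few or no UMIs in A and B, but their summed level was above the median of the other kept cells. The whole list came to 133 CPM in A (limits 76.0 to 216) and 89.5 in B (limits 56.7 to 134). In the other kept cells the median was 41.4 CPM and the highest value 252. Of the 11 axon and motor neuron genes with enough UMIs, 1 was at least 8-fold higher in A and B, while 6 had 0 UMIs in both. Over the 22722 genes 24.8% had 0 UMIs in both. Uchl1, a neuronal ubiquitin hydrolase, had 0 and 11 UMIs and a log2 ratio of 0.48 (limits -0.53 to 1.33). Syt1, a calcium sensor of synaptic vesicles, had 7 and 8 and a ratio of 1.46 (limits 0.61 to 2.19). Chat, which makes acetylcholine, had 0 and 2 UMIs. Nefm and Nefh, the neurofilament genes that accompany Nefl and were named after their values were seen, had 0 UMIs in both cells. Over the 171 cells Nefm had 29 UMIs in 21 cells and Nefh 10 in 6. Given 377385 UMIs in A and B, a count of 0 allows up to 7.95 CPM with 3 counts taken as the limit. That is above the 0.559 CPM of Nefm over all cells. It is also above the 1.87 CPM of Ina, the highest of the 6 genes at 0. For each of the 6, a level as low as that of all cells could not be told from 0 in A and B. The 1 axon gene that was at least 8-fold higher was Sncg, with 8 and 1 UMIs and a log2 ratio of 5.02 (limits 3.78 to 6.09). Each axon gene with enough UMIs that had a UMI in A or B had a ratio above 0. For Uchl1, Chat and Gap43, another gene of the list, the limits lay on both sides of 0.

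Transcripts of the 8 myofiber genes were low in the same cells. They made up 25423 CPM in A and 38658 in B, against a median of 136701 and a lowest value of 25740 in the other 169 cells. Their median log2 ratio was -2.18, and 0 of 8 were at least 8-fold higher. The 9 genes of the nuclei under the neuromuscular junction, such as the acetylcholine receptor gene Chrna1 and the kinase gene Musk, had a median log2 ratio of -0.56, and 0 of 9 were at least 8-fold higher. Summed, these 9 came to 241 CPM in A and 611 in B, against a median of 544 in the other cells. Cells A and B thus had a lower level of the 8 myofiber genes, and its part in the ratios above was not tested.

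**Figure D3:**
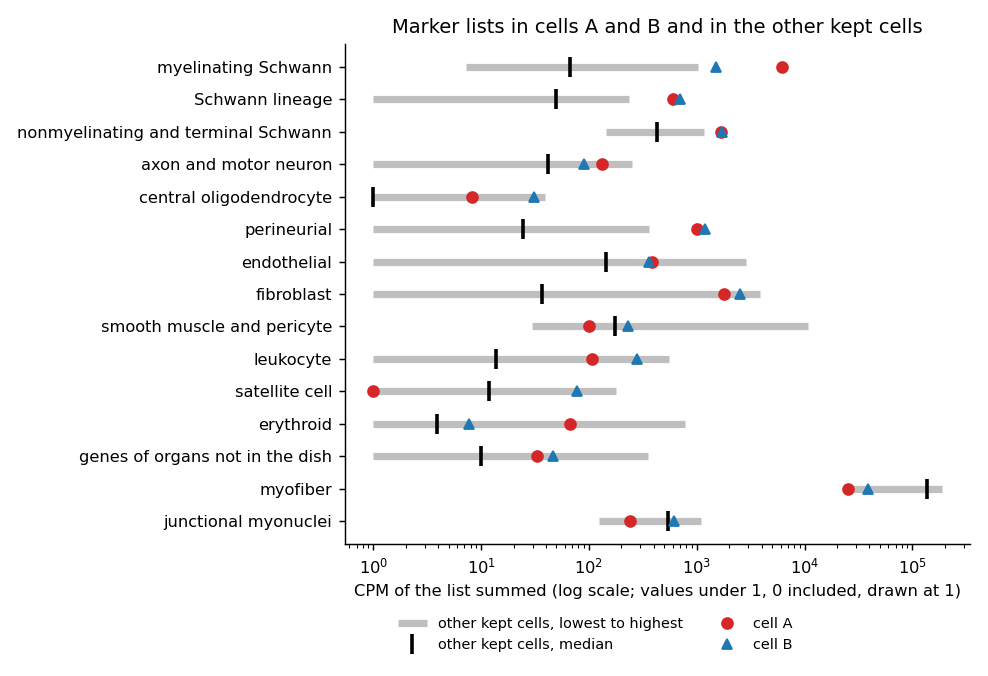
Summed CPM of 15 marker lists (horizontal axis, logarithmic, values under 1 drawn at 1) in cell A, in cell B and as lowest, median and highest value of the other 169 kept cells. The sums keep the genes used to pick A and B. Pmp22, Mbp, Prx and Mag are in the myelinating Schwann list and Sox10 is in the Schwann lineage list. With them A and B lie beyond every other cell for both lists, and sums without them were not computed. A and B also lie beyond every other cell for the nonmyelinating Schwann and perineurial lists, which hold none of these genes. They lie above the median but within the range for axon genes, and at the low end for myofiber genes, where cell A is the lowest.

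The cell barcodes of A and B were checked on the other plates. The 14 cells with these barcodes there had at most 9 UMIs of Pmp22, 2 of Mbp and 1 of Prx, among them a kept cell of 375974 UMIs and one of 424042. Of the 14 cells 3 were kept, and most of the others were shallow.

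Plate 707 was also the highest in its other cells. By plate, the 5 genes summed to 52.4 CPM on plate 705, 36.4 on 706, 169 on 707, 30.5 on 708, 35.0 on 709, 45.0 on 710, 27.3 on 711 and 39.1 on 712. Without A and B plate 707 had 70.3 CPM (limits 63.4 to 77.7), still above the upper limit of 59.9 on plate 705. At least 3 of the 5 genes were found in 18 of 22 cells on plate 707 (81.8%), against 5 of 25 on plate 711 (20%) and 5 of 23 on plate 708 (21.7%).

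**Figure D4:**
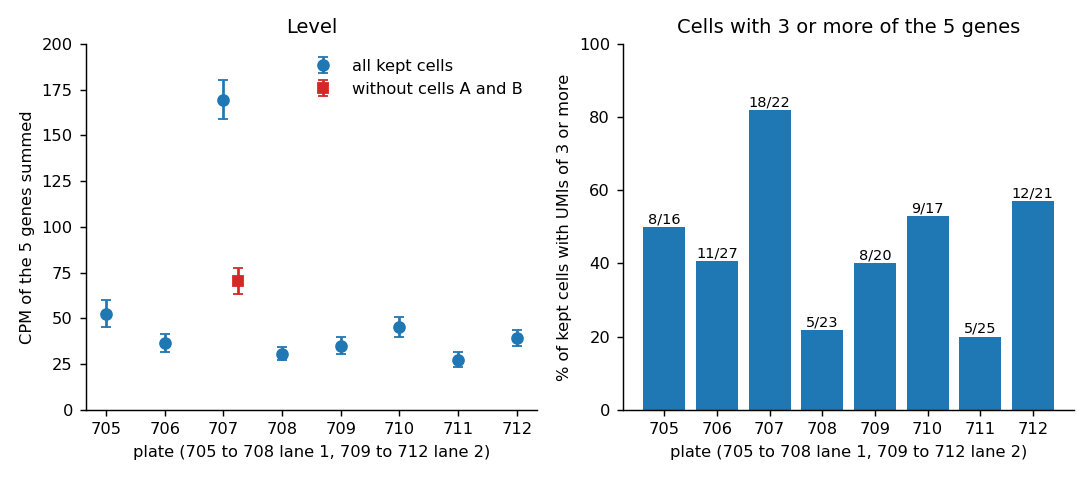
Summed CPM of the 5 genes by plate with Poisson 95% limits, for plate 707 also without cells A and B (left), and percent of kept cells with UMIs of at least 3 of the 5 genes, with their number over all kept cells of the plate (right). Plate 707 is highest in both, at 169 CPM with and 70.3 CPM without A and B.

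The other 20 kept cells of plate 707 were compared with the 149 kept cells of the other plates. Mbp stood at 20.4 and 6.43 CPM (log2 ratio 1.66, limits 1.34 to 1.98) and was found in 18 of 20 cells (90%) against 83 of 149 (55.7%). The median depth was lower on plate 707, with 166792 UMIs against 240950. Pmp22 had a log2 ratio of 0.72 (limits 0.50 to 0.92), Prx of 0.82 (limits 0.21 to 1.40) and Sox10 of 0.92 (limits 0.00 to 1.74). Mag rested on 1 UMI on plate 707, and its ratio of -1.29 had limits on both sides of 0. Of 22727 genes, 6.39% were at least 2-fold higher on plate 707, with a median log2 ratio of -0.07. Of the 5 genes Mbp alone was at least 2-fold higher. Of 16 myelinating Schwann genes 2 were, and 2 were at least 2-fold lower. Without A and B, Pmp22, Mbp and Prx were still highest on plate 707. Sox10 and Mag were highest on plate 710, Sox10 with 3.88 CPM against 2.78 on plate 707. The limits leave out differences between cells, and plate and sorting cannot be told apart.

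The cells that did not pass the filters give a view of the plates that did not enter these counts. Among the 592 cells left out, the 74 on plate 707 had 87.1 CPM of the 5 genes (limits 73.3 to 103) against 49.2 (limits 45.6 to 53.1) in the 518 on other plates. The log2 ratio was 0.82 (limits 0.55 to 1.09), and 1.30 (limits 0.86 to 1.73) for Mbp alone. Plate 707 was not the highest there. Plate 706 had 158 CPM (limits 138 to 181) from 216 UMIs in 68 cells, and 94 of the 216 came from 1 cell. The other 6 plates lay between 31.2 and 42.5 CPM.

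Cells rich in these genes were few in the whole table. At least 10 UMIs of the 5 genes and at least 500 CPM were found in 9 of 763 cells, limits chosen after the counts were seen. Of the 9, 4 were on plate 707, all of them in row 2, 3 were on plate 706, and 1 each on plates 705 and 708. The labels call all 9 whole myocytes, and 3 passed the filters. A left-out cell in row 6 of plate 706, with 44284 UMIs and 24.7% mitochondrial counts, had 42 UMIs of Pmp22, 28 of Mbp, 18 of Prx and 6 of Sox10. Another in row 2 of the same plate had 35 UMIs of the 5 genes among 11522, or 3038 CPM, with 12.3% mitochondrial counts and 3951 genes. Without its 4 rich cells, row 2 of plate 707 had 88.9 CPM in 8 cells (limits 47.3 to 152), and the other 7 rows had 50.3 to 97.3 CPM.

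Between cells left out and cells kept, the 5 genes differed one from another. At least 1 UMI of the 5 genes was found in 225 of 592 cells left out (38.0%), whose median depth was 16032 UMIs against 239581. Sox10 was 4.75 CPM in the cells left out against 1.93 in those kept (log2 ratio 1.30, limits 0.85 to 1.75). Prx stood at 8.27 and 5.05 CPM (log2 ratio 0.71, limits 0.40 to 1.02). Mbp stood at 16.7 and 12.8 CPM (log2 ratio 0.39, limits 0.18 to 0.60). Mag had 0.705 against 0.501 CPM, and the limits of its ratio of 0.49 lay on both sides of 0. Pmp22 was lower in the cells left out, at 22.7 and 31.1 CPM (log2 ratio -0.46, limits -0.63 to -0.29), but this ratio turned to 0.53 (limits 0.36 to 0.70) when mitochondrial genes were taken out of the totals. That change of totals moved every ratio up by 0.99, and the median of all 23963 genes from -0.50 to 0.48, so that Pmp22 stayed near this median under both totals. Of these genes 8.14% were at least 2-fold higher in the cells left out, as was 1 of the 5 genes, Sox10. Without A and B, 8.71% of 23905 genes and 3 of the 5 were, with log2 ratios of 1.56 for Sox10, 1.28 for Prx (limits 0.95 to 1.62) and 1.08 for Mbp (limits 0.85 to 1.31), while Pmp22 stood at -0.24. A and B were picked among the kept cells by these same genes, and no rich cell was dropped from those left out. That choice favours a rise of the ratios of the 5 genes, so the values without A and B only describe it.

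The sum of the 5 genes was 53.2 CPM in the cells left out and 51.4 in those kept (log2 ratio 0.05, limits -0.07 to 0.16). Without A and B, whose choice favours a rise, the ratio was 0.40 (limits 0.29 to 0.52), and without mitochondrial genes in the totals it was 1.03. The cells left out had a median of 48.0% mitochondrial counts, which enter each total, and a median of 2657.5 genes. How many of them failed each filter was not counted. The 93 fragments, kept or left out, had 47.5 CPM of the 5 genes (limits 40.6 to 55.1), with 0 UMIs of Mag, which allows up to 0.828 CPM with 3 counts taken as the limit. They all lay in row 8 of the plates, so fragment and row cannot be told apart.

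**Figure D5:**
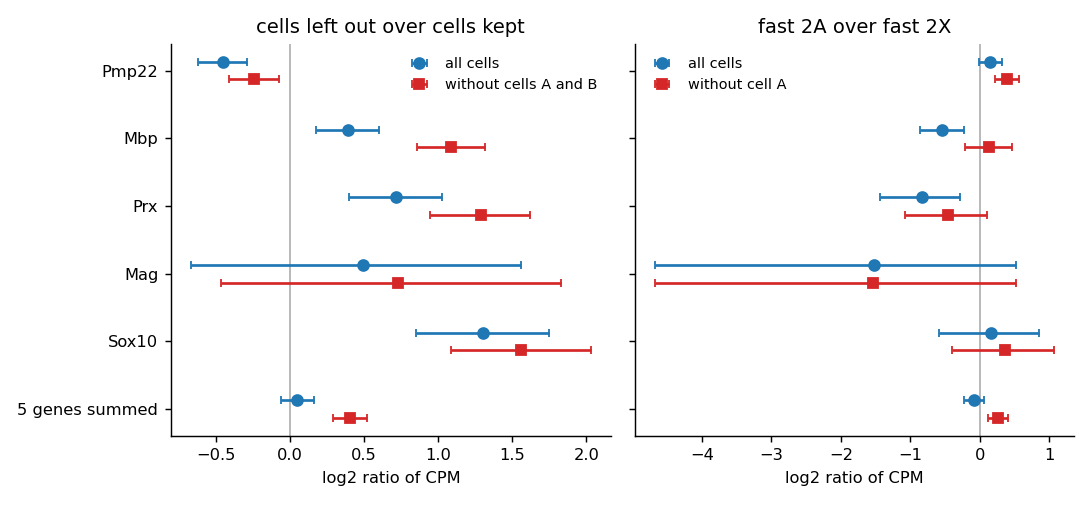
Log2 ratios of CPM (horizontal axes) with exact 95% counting limits for each gene and for the sum of the 5 genes, between cells left out and cells kept (left) and between fast 2A and fast 2X cells (right), with all cells and without cell A or cells A and B. In the sum the left ratio moves from 0.05 to 0.40 and the right one from -0.09 to 0.26. The choice of A and B by these same genes favours both moves.

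Fiber type was assigned by the leading myosin heavy chain gene, with Myh2 marking 51 fast 2A cells and Myh1 marking 117 fast 2X cells, among them cell A. At least 3 of the 5 genes were found in 21 of 51 fast 2A cells (41.2%) and 53 of 117 fast 2X cells (45.3%), with overlapping limits, at median depths of 206510 and 255726 UMIs. The sum of the genes was 45.6 CPM in fast 2A and 48.4 in fast 2X (log2 ratio -0.09, limits -0.23 to 0.05). Without cell A, which was picked by these genes and lies in fast 2X, the ratio was 0.26 (limits 0.12 to 0.40). Without lane 1, which holds cell A, it was 0.11 (limits -0.12 to 0.33). Without lane 2 and with cell A it was -0.33 (limits -0.51 to -0.15). Mbp went from -0.54 to 0.13 (limits -0.21 to 0.46) without cell A, and Prx from -0.84 to -0.46 (limits -1.07 to 0.11). Pmp22 went from 0.15 to 0.39 (limits 0.22 to 0.56). For Sox10 and Mag the limits lay on both sides of 0 with and without cell A. Over 22703 genes the median was -0.15 and 14.6% differed at least 2-fold either way, while 1 of the 5 genes did, which was Mag on 2 and 19 UMIs.

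The genes whose levels over the 171 cells were most like those of each of the 5 genes were sought among 18852 genes, by Pearson's r of log2(CPM + 10). For Pmp22 they were Pcolce (0.60), an enhancer of procollagen processing, Dcn (0.57) and Jcad (0.55). For Mbp they were C1s1 (0.64), a complement protease, Kcna1 (0.63), a potassium channel, and the perineurial gene Moxd1 (0.63). For Prx they were Sfrp5 (0.77), a secreted Wnt antagonist, and Pcolce (0.65), the first and last of the 3. Sox10 had Pcolce (0.67), H2-DMb2 (0.65) and Cav1 (0.61), which encodes caveolin. Without A and B those named fell to between 0.36 and 0.58. For Mag, with 26 UMIs, the nearest were 4931415C17Rik (0.79), Gm48691 (0.77) and Abca6 (0.75), none of which had a UMI in cell A.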

How the data were processed

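Single-cell libraries were made by mcSCRB-seq from FDB fibers of 1 mouse, pooled by plate after reverse transcription. The authors mapped reads to GRCm38 with zUMIs, which uses STAR 2.5.4b and featureCounts, and counted UMIs per gene. As deposited, the values are raw UMI counts per cell, with other values in its description rows (plate index, lane, row, cell label and percentages), and neither replicates nor cells were pooled. Per the labels, Cell Ranger 3.1.0 was also named. The gene rows were summed to each cell's total, and 0 columns of values were left unused.

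From there, cells with more than 5000 genes and under 20% mitochondrial counts were kept. Counts were summed over cells and divided by their total (CPM), with exact Poisson limits for levels, exact Clopper-Pearson limits for shares and exact conditional binomial limits for ratios, all at 95% (Python 3.11.15, scipy 1.17.1). Ratios over all genes required 20 summed counts, and for the lists in cells A and B 20 in the other kept cells. A group at 0 was set to 3 counts, and the ratio to 0 where that would turn its sign. Thinning used the hypergeometric distribution in closed form. The ratio, thinning and trimmed-mean (TMM) functions were tested on simulated data. The members, the 15 marker lists and the comparisons were chosen with earlier results of these data known. Named were the 6 genes, for each marker list up to 5 genes of highest level, and for each gene the 3 most like it in level among genes with UMIs in at least 10 cells and 50 counts; others are said to be chosen after their values were seen. Alternatives were other minimum counts, filters and totals, leaving out lanes, and leaving out the richest cells or plate 707, the last added after seeing the data. Some results are not reported here.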

Additional observations from a re-analysis of the deposited data

How the results depend on the processing

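No paired analysis was possible because the 2 lanes are 1 group, with no second group sharing their numbers. The share of kept cells with at least 3 of the 5 genes was 44.4%. It fell to 19.3% with at least 2 UMIs required, to 11.1% with at least 3, and to 4.92% after thinning to the shallowest kept cell. It stayed within its counting limits, between 38.9% and 47.7%, under the other filters and without each lane, plate 707 or cells A and B.

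The summed ratio of cells left out over cells kept, 0.05 on the log2 scale, was -0.22 as a mean over cells, 0.46 with TMM factors, 1.03 with totals without mitochondrial genes, 0.29 without cell A, 0.40 without A and B and 0.42 without plate 707. Without each lane it was 0.03 to 0.07. The ratio of fast 2A over fast 2X, -0.09, was -0.47 as a mean over cells and 0.03 with TMM factors. It was 0.26 without cell A, 0.30 without cells whose leading Myh gene was under 60%, and 0.25 without plate 707. Without each lane it ranged from -0.33 to 0.11, the latter with limits of -0.12 to 0.33. The ratio of the highest over the lowest plate, 2.63 for plates 707 and 711, was 3.45 as a mean over cells, 1.88 without cell A, 1.36 without A and B and 0.94 without plate 707, where plate 705 was highest. Without each lane it was 0.72 to 2.47. The causes of these moves were not tested.

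Of 45 alternatives for the share of cells with each gene 29 stayed within the counting limits, and of 40 for the level of each gene 18 did. Of the 9 for the medians of the Schwann and axon lists, all 9 stayed within the quartiles of the list. Mag had 26 UMIs over 171 cells, so its limits are wide.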

Other observations

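Genes that mark oligodendrocytes, the myelin-forming cells of the central nervous system, were counted beside those of Schwann cells. Of the 8 listed, 6 were analysed here, and they were found in a median of 7.5 kept cells. Mobp had 136 UMIs in 40 cells and Mog 92 in 41, against 90 cells for the retinal gene Sag. In cell B Mobp had 8 UMIs, and in cell A it had 0, while Mog had 0 and 1. Summed over the list, the level was 5.14 CPM over the 171 cells, with 8.31 CPM in cell A and 31.1 CPM in cell B, and another kept cell reached 38.8 CPM.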
